A study of Mus musculus with 21 samples.

Results

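The mitochondrial ribosomal protein genes were described in mouse oocytes and granulosa cells of young and aged ovaries and of aged ovaries that had received human cells. A gene was a member where its symbol was Mrpl or Mrps followed by a number and at most 1 further letter, which 78 of the 55335 genes in the deposited tables met. By symbol 49 were Mrpl genes and 29 were Mrps genes. By the particle their proteins are known to occupy, 51 belonged to the large subunit, 26 to the small subunit, and Mrps36 to neither. Mrps18a and Mrps30 carry the small subunit symbol but sit in the large subunit, and Mrps36 is known as a component of the alpha-ketoglutarate dehydrogenase complex. A bacterial ribosomal counterpart is known for 46 members, and 32 have none.

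Mitochondrial ribosomes translate the few messages of the mitochondrial genome, which encode core subunits of the respiratory chain and of ATP synthase. Every one of their proteins is encoded in the nucleus and imported, whereas their ribosomal RNA comes from the mitochondrial genome. Oocytes carry the mitochondria that the embryo inherits, and the surrounding granulosa cells feed them with metabolites through direct contacts.

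All mice were ICR females. Young mice were 6 to 8 weeks old and Aged mice were 18 months old, and both were without a transplant. In the other groups, aged mice had received human umbilical cord mesenchymal stem cells (UC-MSCs) under the ovarian capsule 3 weeks before collection, either not sorted (Aged + Unsorted) or sorted for a high or a low surface level of LRP1, a lipoprotein receptor (Aged + LRP1high, Aged + LRP1low). Whether the Aged controls underwent surgery is not given in the sources used here. Mature (MII) oocytes, freed of the zona pellucida with pronase, and granulosa cells, released from them with hyaluronidase, were sequenced as 12 and 9 bulk libraries. The oocyte groups held 3 Young, 2 Aged, 2 Aged + Unsorted, 3 Aged + LRP1high and 2 Aged + LRP1low libraries. The granulosa groups held 1, 2, 1, 3 and 2 libraries in the same order, so the Young and Aged + Unsorted granulosa libraries entered no comparison. Libraries are named here by cell type, group and replicate number. Nothing says that replicates came from separate animals beyond the word biological, and p-values measure the spread between these libraries. In bulk RNA, fewer cells of a type and less RNA per cell cannot be told apart.

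Levels are given in FPKM, a read density per length of transcript and per size of the library, so that levels can be set side by side between genes. Several libraries stood apart from their label. Depth ranged from 0.278 to 3.40 gigabases of aligned sequence in oocyte libraries and from 0.335 to 1.49 in granulosa libraries. The median FPKM of 10 oocyte markers (such as Zp3 and Gdf9) was 84.9 or more in 8 of 12 oocyte libraries, but 0.892 in oocyte Young 1, 11.6 in oocyte Aged 1, and 5.02 and 7.77 in the 2 oocyte Aged + LRP1low libraries. It was 799.7 in the granulosa Aged + Unsorted library and at most 4.36 in the other 8 granulosa libraries. Low oocyte markers alone do not show that a library holds granulosa cells. Granulosa markers are not given here for the granulosa Aged and Aged + LRP1low libraries. Of protein-coding genes, 4.8% and 3.94% reached 1 FPKM in granulosa Aged. That share was 58.9%, 12.4% and 32.3% in Aged + LRP1high and 24.2% and 14.1% in Aged + LRP1low granulosa libraries. Both oocyte Aged + LRP1low libraries also read genes that no ovarian cell is known to use: the median over 328 vomeronasal receptor genes, a list chosen after the data were seen, was 2.72 and 2.48 FPKM there, against at most 0.0756 in the 3 oocyte Aged + LRP1high libraries. That list is not given here for the other oocyte groups. In the oocyte Aged + LRP1low libraries, 86.6% and 70.4% of all genes reached 1 FPKM. That share was also high in oocyte Aged 1 (50.5%) and oocyte Young 1 (35.6%), against 5.67% to 21.5% in the other oocyte libraries. Medians of members and of all protein-coding genes were 4.13 and 4.11 FPKM in oocyte Aged 1, and 1.58 and 1.17 in oocyte Young 1. The part of these features in the results below was not tested.

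Promoters of the members are shown because 8 members passed the test in a comparison, and their sequences show what the promoters share and do not share. RefSeq (GRCm38.p6) gave 75 windows of 300 bases, from 250 bases before to 50 bases after the start, for 69 members. No entry was used for Mrps34, Mrpl38, Mrpl13, Mrpl19, Mrpl54, Mrpl15, Mrps35, Mrpl4 and Mrps28. Capitals mark the letters CGCATGCG, the core of the motif of NRF1, a known activator of nuclear genes for mitochondrial proteins, and CCGGAAG, the core of the ETS family motif, on either strand. Each line gives the 120 bases just before the start, 5′ to 3′ on the gene's strand. The first 8 are the members that passed a test, and Mrpl22 and Mrpl32, which encode large subunit proteins, show both cores together and a repeated NRF1 core.
Mrps25, chr6:92184024-92184143, minus strand: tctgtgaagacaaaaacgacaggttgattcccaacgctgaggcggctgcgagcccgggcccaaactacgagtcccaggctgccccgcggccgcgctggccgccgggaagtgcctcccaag
Mrpl18, chr17:12916092-12916211, minus strand: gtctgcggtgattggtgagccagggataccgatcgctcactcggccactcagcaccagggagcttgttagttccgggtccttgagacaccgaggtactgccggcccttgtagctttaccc
Mrpl40, chr16:18876638-18876757, minus strand: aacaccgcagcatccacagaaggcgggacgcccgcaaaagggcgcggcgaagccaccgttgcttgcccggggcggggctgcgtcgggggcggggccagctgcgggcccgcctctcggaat
Mrps22, chr9:98601680-98601799, minus strand: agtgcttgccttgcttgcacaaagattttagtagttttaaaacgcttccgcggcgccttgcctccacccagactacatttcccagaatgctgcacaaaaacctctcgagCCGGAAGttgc
Mrpl45, chr11:97315596-97315715, plus strand: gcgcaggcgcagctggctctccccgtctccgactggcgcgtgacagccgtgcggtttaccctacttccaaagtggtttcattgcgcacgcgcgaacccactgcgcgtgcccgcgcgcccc
Mrpl17, chr7:105811088-105811207, minus strand: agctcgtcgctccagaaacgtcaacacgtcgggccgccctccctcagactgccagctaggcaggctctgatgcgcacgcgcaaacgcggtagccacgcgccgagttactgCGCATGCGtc
Mrps33, chr6:39810937-39811056, minus strand: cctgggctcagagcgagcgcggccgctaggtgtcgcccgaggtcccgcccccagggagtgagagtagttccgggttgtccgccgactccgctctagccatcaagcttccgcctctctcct
Mrpl21, chr19:3282922-3283041, plus strand: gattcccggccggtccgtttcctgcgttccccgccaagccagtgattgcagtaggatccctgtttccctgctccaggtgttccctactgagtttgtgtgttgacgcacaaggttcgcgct
Mrpl22, chr11:58171544-58171663, plus strand: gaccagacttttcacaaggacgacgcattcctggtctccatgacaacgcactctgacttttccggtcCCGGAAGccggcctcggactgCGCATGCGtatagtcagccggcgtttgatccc
Mrpl32, chr13:14613038-14613157, minus strand: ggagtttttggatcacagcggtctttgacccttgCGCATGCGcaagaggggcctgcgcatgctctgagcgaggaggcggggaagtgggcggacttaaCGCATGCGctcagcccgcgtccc
Among the 8 members that passed a test, the lines of Mrpl17 and Mrps22 held a core, 10 and 11 bases before the start. In their whole windows, Mrpl17 and Mrpl18 also held an ETS core 237 and 240 bases before the start, and Mrpl21 and Mrps33 held one 8 and 39 bases after it. Neither core occurred in these windows of Mrps25, Mrpl40 and Mrpl45.

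Over all members, the ETS core was the commonest of the letters searched on both strands, and stood in 34.7% of the 75 windows and in 8.86% of the 32851 windows of all genes. Among protein-coding genes it stood in 11.6% of 21263 windows. AAGATGGC, the core of the YY1 motif, stood in 16% of member windows, 3.05% of protein-coding windows and 2.75% of all windows. The NRF1 core stood in 9.33%, 2.52% and 1.87% in the same order, and its 7 members were Mrpl9, Mrpl10, Mrpl17, Mrpl22, Mrpl32, Mrpl39 and Mrps18b. TATAAA was less frequent among members, at 6.67% against 12.6% of protein-coding and 13.6% of all windows. At least 1 of the NRF1, ETS and YY1 cores was present for 38 of 69 members, and at least 2 of them for 7. ETS and YY1 cores shared letters in 0 member windows. The member windows were also richer in CG dinucleotides, with a median of 21 against 13 in protein-coding and 7 in all windows, while the median GC content was 58.7%, 56.3% and 52.7%. These are counts of letters, and no factor was measured.

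Among oocyte libraries, members were high in 5 libraries and low or patchy in the other 7. The median member stood at 17.0 FPKM in oocyte Young 3, 17.8 in Aged 2, 30.9 in Aged + Unsorted 2, and 18.6 and 16.7 in Aged + LRP1high 1 and 2. It stood at 1.58 in Young 1, 4.13 in Aged 1, 6.13 in Aged + Unsorted 1, 6.29 and 4.32 in Aged + LRP1low, 0.336 in Aged + LRP1high 3 and 0 in Young 2. Libraries of the same group thus differed widely, from 0 to 17.0 in Young and from 0.336 to 18.6 in Aged + LRP1high oocytes. In oocyte Young 2, 53 of 78 members were listed at 0, and Mrps21 alone made 56.3% of the summed member level. In oocyte Aged + LRP1high 3, 27 members were at 0.

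**Figure D1:**
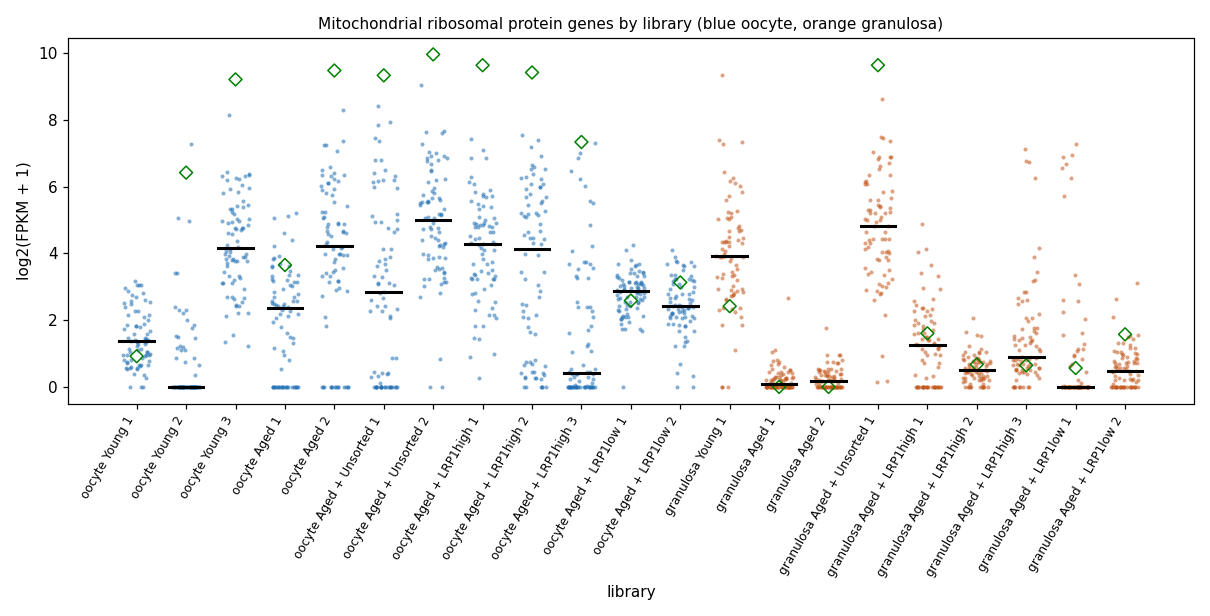
Level of each of the 78 members in every library on the log2(FPKM + 1) scale (points, blue oocyte and orange granulosa), with the member median (bar) and the median of 10 oocyte markers (green diamond). The bar of the granulosa Aged + Unsorted library lies with the higher oocyte libraries, and the 2 granulosa Aged libraries lie near 0.

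Granulosa libraries were lower except for both groups with a single library. Members had a median of 14.1 FPKM in granulosa Young 1 and 27.3 in granulosa Aged + Unsorted 1. The medians were 0.0654 and 0.128 in granulosa Aged, 1.37, 0.416 and 0.847 in Aged + LRP1high, and 0 and 0.397 in Aged + LRP1low. In granulosa Aged + LRP1low 1, 50 members were listed at 0 while Mrpl30 read 154 FPKM, Mrps15 123 and Mrpl39 118, so few genes carried the summed level. The member median exceeded the median of all protein-coding genes of the same library in 17 of 21 libraries. Between cell types, 67 members had a higher mean over oocyte libraries and 11 over granulosa libraries, with no test on this count. No share of all genes was set beside it, so it says nothing about the members in particular. From 11.7% to 96.5% of protein-coding genes reached 1 FPKM in oocyte libraries and from 3.94% to 58.9% in granulosa libraries. The granulosa mean also holds the Aged + Unsorted library with its high oocyte markers. A level above 0 was found in every oocyte library for 13 members, in every granulosa library for 12 and in all 21 libraries for 4.

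Levels differed between members, although their proteins occur together in the assembled ribosome. By mean FPKM over the 12 oocyte libraries, the highest were Mrps33 at 147, Mrpl21 at 83.1, Mrpl18 at 76.7, Mrps21 at 66.6 and Mrpl14 at 55.2. The lowest were Mrps34 at 0.989, Mrpl19 at 1.56, Mrpl43 at 2.69, Mrpl27 at 2.88 and Mrps10 at 3.03. Mrps33, a small subunit protein without a bacterial counterpart, read 0.653, 3.05 and 282 FPKM for the Young libraries, 4.34 and 314 for Aged, 246 and 528 for Aged + Unsorted, 138, 188 and 44.7 for Aged + LRP1high, and 7.70 and 11.6 for Aged + LRP1low oocytes. It was thus high in each library with high oocyte markers except Young 2, and low in the libraries with few oocyte marker reads. Mrpl14, whose bacterial counterpart lies at the face between the subunits, read 0 in Aged + LRP1high 3 and 197 in Aged + Unsorted 2.

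In granulosa libraries the highest means belonged to Mrpl33 at 102.5 FPKM, Mrps33 at 52.3, Mrps18c at 51.1, Mrpl42 at 36.4 and Mrps21 at 30.6. The lowest were Mrps34 at 0.343, Mrpl19 at 0.690, Mrps27 at 1.73, Mrpl17 at 1.83 and Mrpl3 at 1.85. Single libraries set several of these means. Mrpl33, a counterpart of a small bacterial large subunit protein, read 652 FPKM in granulosa Young 1 and 139 and 117 in Aged + LRP1high 3 and Aged + Unsorted 1, but at most 9.59 in the other 6 granulosa libraries. Mrps33 owed its granulosa mean mostly to the Aged + Unsorted library, at 395. Mrpl48 was the highest member in both granulosa Aged libraries, at 5.38 and 2.38, and in Aged + LRP1high 2, at 3.22. Its exons overlap Rab6a on the other strand, and a processed copy, Mrpl48-ps, has 31.8 FPKM in oocyte Young 3 and 43.6 in oocyte Aged + Unsorted 2, so reads of these genes cannot be told apart with certainty.

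Members of the same functional region also differed in level. At the stalk base, where translation factors dock, Mrpl12 read 3.50, 3.92 and 13.7 FPKM in Young oocytes and 18.9, 50.3 and 0.359 in Aged + LRP1high oocytes. Its neighbours Mrpl10 and Mrpl11 reached at most 26.4 and 23.5 in an oocyte library. Around the exit tunnel, where the new chain leaves toward the inner membrane, Mrpl24 and Mrpl22 had oocyte means of 47.5 and 28.7, above Mrpl23 at 15.7. Near the peptidyl transferase centre, Mrpl2 had a mean of 30.5, Mrpl4 one of 10.9 and Mrpl3 one of 4.19. In the small subunit, Mrps7, Mrps12 and Mrps5 had means of 24.8, 16.7 and 4.9, and Mrps30 of the large subunit had one of 4.25. All of these genes were listed at 0 in at least 1 oocyte library, and the order of their means was not tested.

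Paralogs differed in level. Of the Mrps18 proteins, Mrps18b and Mrps18c lie in the small subunit and Mrps18a in the large. Mrps18c read 1.05, 30.3 and 76.2 FPKM for Young oocytes, 0 and 79.5 for Aged, 73.1 and 129 for Aged + Unsorted, 56.6, 91.6 and 4.29 for Aged + LRP1high, and 3.24 and 0.606 for Aged + LRP1low. Mrps18b read at most 22.1 in any oocyte library. Mrpl58, a peptidyl-tRNA hydrolase that became a ribosomal protein, ranged from 0 in oocyte Young 2 to 167 in oocyte Aged + LRP1high 2, and Mrps36 from 1.67 in oocyte Young 1 to 201 in oocyte Aged + Unsorted 2.

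**Figure D2:**
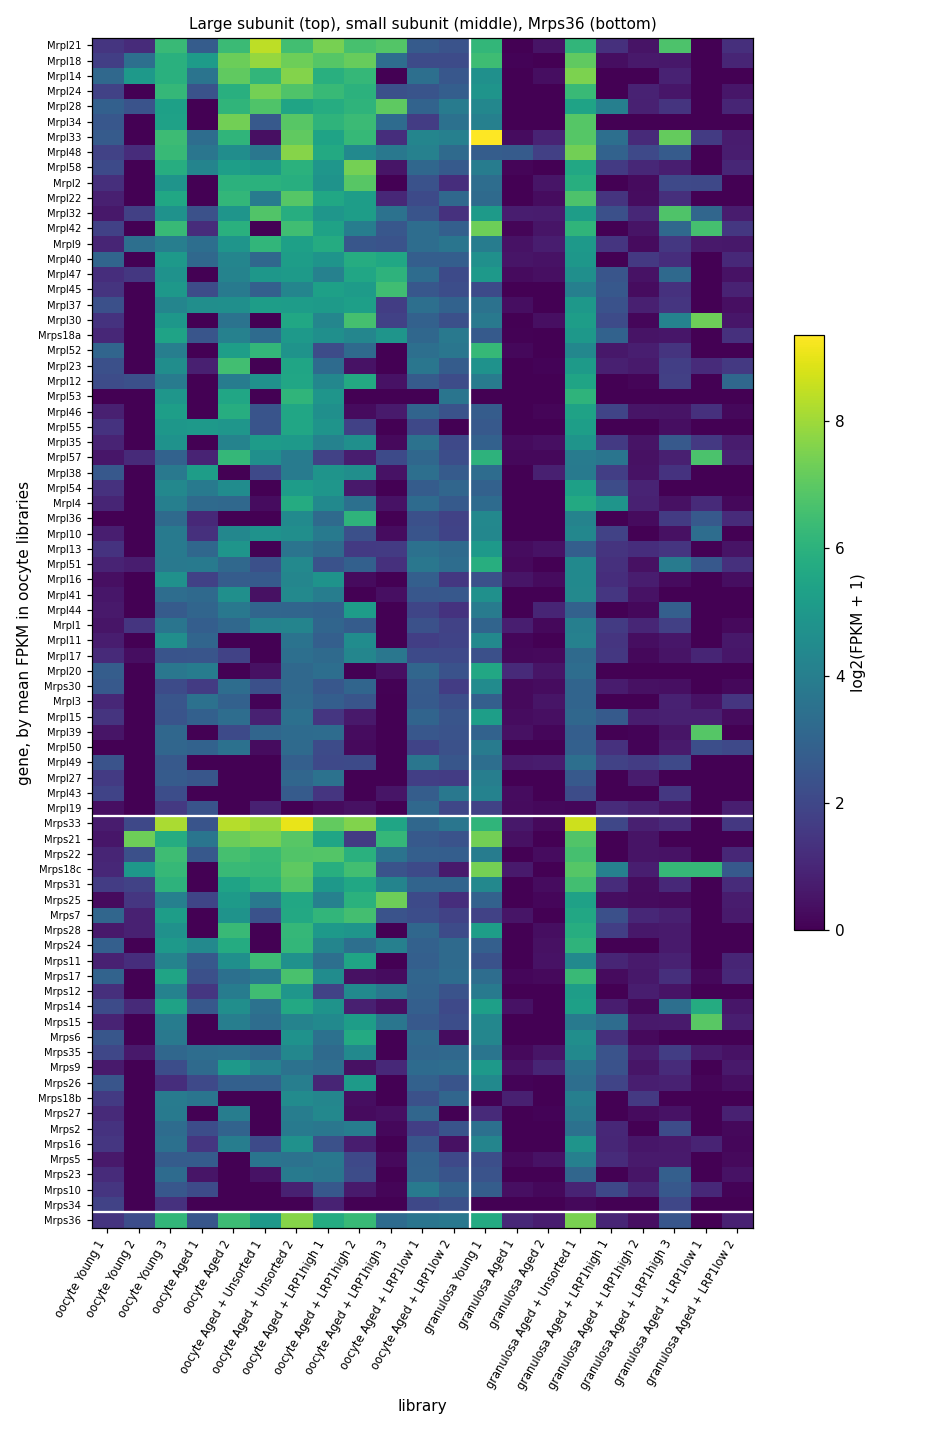
Level of each member (vertical axis, large subunit above, small subunit in the middle, Mrps36 last, each block by mean oocyte FPKM) in each library (horizontal axis, oocyte left of the white line) as log2(FPKM + 1) by colour. Dark columns such as oocyte Young 2 hold many members at 0, and single bright cells such as Mrpl33 in granulosa Young 1 reach 652 FPKM.

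Neither subunit was higher throughout. The large subunit median was above that of the small subunit in 14 libraries and below it in 5, with both at 0 in 2. Members with a bacterial counterpart had the higher median in 11 libraries and the lower in 8. Some levels are uncertain because exons overlap those of another gene: 33 members have such an overlap in GENCODE M21, 8 on the same strand. On the same strand and with a protein-coding gene lie Mrpl53 (Gm42688), Mrps24 (Urgcp), Mrps34 (Nme3) and Mrps6 (Slc5a3). Whether counting used the strand is not given in the sources used here, so reads of genes on opposite strands cannot be told apart. Such partners include Nr2c2 for Mrps25, Tcp1 for Mrpl18 and Ighmbp2 for Mrpl21. Mrps22, Mrpl40, Mrpl45, Mrpl17 and Mrps33 have no such partner.

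Comparisons between groups were tested with limma on log2(FPKM + 1), in 1 model for each cell type, over genes with a mean of at least 1 FPKM in the libraries of the model. A member was called, and is said to have risen or fallen, at a fold change above 1.5 and a Benjamini-Hochberg adjusted p under 0.05 over all genes tested. Of the 78 members, 77 passed the filter in oocytes, where Mrps34 failed, and 76 in granulosa cells, where Mrps34 and Mrpl19 failed. The granulosa filter used the mean over all 9 libraries, with the Young and Aged + Unsorted libraries that entered no comparison. Passing it thus does not show expression in the groups compared. Mrpl34 and Mrpl53 passed, but were listed at 0 in every Aged, Aged + LRP1high and Aged + LRP1low granulosa library. Fold changes on this scale understate those of low genes.

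Between Aged and Young oocytes, the question of age, no member was called by limma, against 0.0964% of all 28004 genes higher and 0% lower. At an unadjusted p under 0.05, 1 member was higher and 0 lower, beside 8.43% and 0.214% of all genes. It was Mrps9, a small subunit protein with a bacterial counterpart. Mrps9 read 0.579, 0 and 3.63 FPKM in Young and 8.31 and 32.5 in Aged oocytes, so the groups did not overlap, and limma gave a log2 difference of 3.19 (SE 0.99, adjusted p = 0.231). Mrpl15 and Mrpl37, both of the large subunit, were next, with log2 differences of 1.81 and 2.46 and an adjusted p of 0.515 in limma. Mrpl37 read 3.86, 0 and 18.3 in Young and 23.5 and 24.4 in Aged oocytes. On the lower side Mrpl43, Mrpl49 and Mrps6 were listed at 0 in both Aged oocyte libraries and read 0 to 3.63, 0 to 5.16 and 0 to 12.6 in Young. In 6 members every Aged library exceeded every Young library and in 0 the reverse held, against 11% and 0.646% of all genes. The median log2 difference over the members was 1.01, beside 0.94 over all genes, and with quantile normalization it was -0.14. It ranged from -0.02 without Aged 2 to 2.24 without Aged 1. Leaving out Aged 1 made 1 call (Mrpl57 higher), beside 3.78% of all genes called higher. Leaving out Aged 2 made 1 (Mrpl28 lower), where limma called 33% of genes higher and 0.0657% lower.

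For transplanted aged mice, no member was called in Aged + Unsorted against Aged oocytes, where limma called 0% of all genes in either direction and, at an unadjusted p under 0.05, no member and 1.7% of genes higher and 7.04% lower. The highest differences by p were those of Mrps12, Mrps31 and Mrpl32, at 3.00, 3.71 and 2.71 on the log2 scale with an adjusted p of 0.436 in limma. Mrps12, whose bacterial counterpart lies at the decoding centre, read 1.77 and 14.4 FPKM in Aged and 89.3 and 29.3 in Aged + Unsorted oocytes. The groups did not overlap in 17 members, all higher with the transplant, against 10.3% of genes higher and 11.3% lower. Leaving out Aged 2 raised the calls to 5, all higher, in a fit that called 1.38% of all genes higher and 35.6% lower. On the lower side by p stood Mrpl13, Mrpl3 and Mrpl50, each with overlapping groups. The member median of 1.00 stood beside -0.86 for all genes, and was 0.96 and 0.22 under the quantile and rescaled alternatives. Leaving out 1 library moved it from -0.0031 (without Aged + Unsorted 2) to 2.03 (without Aged + Unsorted 1), and it was 0.03 without Aged 1.

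In Aged + LRP1high against Aged oocytes, limma called no member, against 0.0179% of genes higher and 0.753% lower. Mrpl47, Mrpl28 and Mrpl45 had the smallest p on the higher side, with log2 differences of 3.13, 3.24 and 2.64 (adjusted p 0.370 in limma). Mrpl45, which anchors the ribosome at the inner membrane near the exit tunnel, read 3.52 and 13.4 FPKM in Aged and 39.2, 34 and 88.6 in Aged + LRP1high oocytes. Its groups did not overlap. At an unadjusted p under 0.05, 1 member was higher and 2 lower, beside 0.925% and 9.94% of genes. Mrpl15, Mrps9 and Mrpl50 lay lower, by -2.39, -2.53 and -2.42 with an adjusted p of 0.329 to 0.370 in limma. Mrpl15 read 6.21 and 9.08 in Aged and 1.78, 0.562 and 0 in Aged + LRP1high. Groups did not overlap in 5 members higher and 6 lower, against 3.85% and 12.4% of all genes. The member median was -0.09 beside -1.05 for all genes, and 0.65 beside 0.04 with quantile normalization. It was -1.04 without Aged 1, 0.74 without Aged 2 and 0.76 without Aged + LRP1high 3. Without Aged 2 there were 5 calls (4 higher, 1 lower), beside 0.792% of all genes higher and 38.7% lower, and without Aged 1 there was 1, lower, beside 4.56% of genes.

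In Aged + LRP1low against Aged oocytes, no member was called, although limma called 3.09% of all genes higher and 0.075% lower. Mrpl43 and Mrpl49, listed at 0 in both Aged libraries, read 5.78 and 12.5 FPKM and 11.9 and 4.71 in Aged + LRP1low, with an adjusted p of 0.132 and 0.237 in limma. Mrps10 followed, at 9.96 ± 4.34 (SD, n = 2) against 1.70 ± 2.40 (n = 2) and an adjusted p of 0.382 in limma. Mrpl18 lay at the other end, with 34.2 and 150 in Aged and 3.36 and 3.39 in Aged + LRP1low, a log2 difference of -4.06 (SE 1.49, adjusted p = 0.208 in limma). Mrpl55 and Mrps21 lay lower by -3.96 and -2.93. Before adjustment, 2 members were higher and 1 lower at p under 0.05 in limma, beside 13.2% and 0.953% of genes. Apart from Mrpl55, these members read between 3.36 and 13 FPKM in both LRP1low libraries, whether they had been at 0 or above 100 in an Aged library. In those libraries 47920 and 38934 genes reached 1 FPKM. The groups did not overlap in 7 members higher and 16 lower, against 27.1% and 9.55% of all genes. Members had a median of -0.46 beside 0.68 for all genes, and 0.15 beside 1.23 when libraries were rescaled to genes other than mitochondrial and Gm genes. The member median was -1.52 without Aged 1 and 0.3 without Aged 2. Leaving out Aged 1 gave 1 call, Mrpl57 lower, beside 1.8% of genes lower and 20.9% higher.

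Set against Young oocytes, Aged + LRP1high oocytes had no member called, where limma called 0% of genes in either direction. At an unadjusted p under 0.05, 7 members were higher and 0 lower, against 2.96% and 0.211% of all genes. Mrps25, Mrpl45 and Mrpl21 led, with log2 differences of 3.85, 3.52 and 3.99 and an adjusted p of 1 in limma. Mrpl21 read 1.75, 1.24 and 80.0 FPKM in Young and 170, 99.0 and 115 in Aged + LRP1high, and only Young 3 came near the transplanted group. Without Young 3, 2 members were called higher, Mrpl21 and Mrpl45, beside 0.7% of all genes. The member median was 0.84, with a lowest value of 0.15 without Young 2 and a highest of 1.86 without Aged + LRP1high 3. Over 9 settings, which include the main fit and no fit with a single replicate left out, the median of all genes was -0.557 to 0.263. The member median lay above that of all genes in each of these, by 0.384 to 1.44. Mrpl43, Mrps17 and Mrpl15 were the lower members with the smallest p, by -0.70, -1.06 and -0.57. Groups did not overlap in 5 members, all higher, against 1.67% of genes higher and 0.603% lower. This comparison shares its Aged + LRP1high libraries with those above and below, and its Young libraries with the comparison of ages.

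Of the comparisons within oocytes, that of the LRP1high with the LRP1low transplant was the 1 in which members were called. Mrps25 and Mrpl21 rose, 2 of 77 members, beside 1.21% of all genes called higher and 24.8% called lower by limma. Mrpl21, the counterpart of bacterial L21 in the large subunit, read 170, 99.0 and 115 FPKM in Aged + LRP1high and 5.40 and 4.20 in Aged + LRP1low oocytes. Its mean of 128 ± 37.3 (SD, n = 3) against 4.8 ± 0.846 (n = 2) gave a log2 difference of 4.45 (SE 1.5, adjusted p = 0.0496 in limma). Every LRP1high library exceeded every LRP1low library by far. Mrps25, a small subunit protein without a bacterial counterpart, read 16.2, 62.4 and 157 in LRP1high and 3.30 and 1.35 in LRP1low oocytes, a log2 difference of 4.13 (SE 1.33, adjusted p = 0.0454 in limma). Its groups did not overlap either, but the LRP1high libraries differed widely among themselves.

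No member fell, while 6951 of 28004 genes did. Mrpl19, Mrpl43 and Mrps10 came nearest, with log2 differences of -2.33, -2.60 and -2.27 and an adjusted p of 0.0569, 0.0592 and 0.0961 in limma. Mrpl19 read 0.211, 0.352 and 0 FPKM with LRP1high and 7.82 and 2.96 with LRP1low. Without adjustment, limma put 5 members higher and 3 lower at p under 0.05, beside 3.17% and 45.9% of all genes. Groups did not overlap in 17 members higher and 8 lower, against 6.82% and 62.6% of all genes. The member median was 0.25 (all genes -1.89), with 43 members above 0 and 34 below, a count without the share of all genes. The member median lay above the median of all genes under each of the 8 settings tried, by 1.37 to 3.93. These 8 include the main fit and limma's trend and robust options, which cannot move a median, and no fit with a replicate left out. In the oocyte LRP1low libraries themselves, the medians of members and of all protein-coding genes were close, 6.29 beside 5.24 and 4.32 beside 3.83 FPKM.

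Both calls rested on few libraries and on the scale. Mrps25 was called in 3 of 7 other settings and Mrpl21 in 1 of 7, and with libraries rescaled to genes other than mitochondrial and Gm genes, 0 members were called higher and 6 lower (Mrpl15, Mrpl19, Mrpl43, Mrps9, Mrps10 and Mrps34). That fit called 0.864% of all genes higher and 42.6% lower, with a median of -2.44 over all genes and -0.63 over the members. Leaving out any library of Aged + Unsorted, Aged + LRP1high or Aged + LRP1low left 0 calls, and leaving out Young 1 left Mrps25 alone. Without Young 2, Mrpl21 was called higher and Mrps34 lower, beside 1.1% and 23.1% of all genes. Without Young 3 there were 4 calls, all higher, beside 2.22% of genes called higher and 22.9% lower. Without Aged 1 there were 3 higher and 2 lower (Mrpl19 and Mrps34), beside 2.24% and 43.9% of genes. The same 5 members were called without Aged 2, beside 1.88% higher and 51.5% lower. The member median ranged from -0.25 (without Aged + LRP1high 1) to 1.04 (without Aged + LRP1high 3), and was -0.07 without Aged + LRP1high 2. The oocyte markers moved with the comparison: 10 of 10 were above 0 on the log2 scale with a median of 5.89, and their summed level was 3507 to 9246 FPKM with LRP1high and 53.0 and 165.9 with LRP1low. The 10 granulosa markers summed to 0.259 to 16.8 FPKM with LRP1high, where 2 to 8 of them stood at 0, and to 56.7 and 50.5 with LRP1low. Their part in the result was not tested.

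Against Aged + Unsorted, Aged + LRP1high oocytes had no member called, with 0% of genes called by limma and 0 members higher and 2 lower at an unadjusted p under 0.05 (0.243% and 2.55% of genes). Mrpl17, Mrpl45 and Mrpl40 were the higher members with the smallest p, at log2 differences of 2.03, 2.10 and 1.24 (adjusted p 1 in limma). On the lower side stood Mrpl52, Mrps9 and Mrps17, by -3.69, -2.22 and -3.51. Mrpl52 read 72.3 and 26.6 FPKM in Aged + Unsorted and 3.47, 8.46 and 0 in Aged + LRP1high. The groups did not overlap in 1 member higher (Mrpl45) and 13 lower, against 2.06% and 8.48% of genes. The member median of -1.04 stood beside 0.00 for all genes and stayed below it under each of 9 settings, by 0.308 to 1.35. These 9 include the main fit and limma's trend and robust options, and no fit with a single replicate left out in turn. Leaving out each replicate moved the member median from -1.92 to -0.028.

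**Figure D3:**
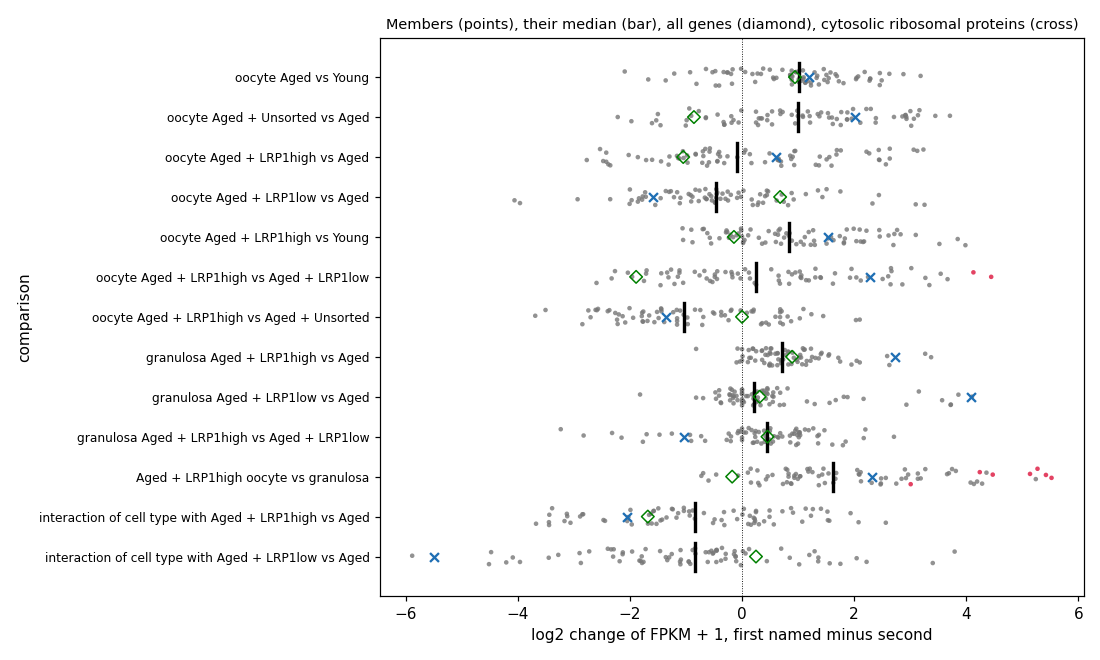
Log2 difference of FPKM + 1 for each member tested (points, red where called) in the 13 comparisons, with the member median (bar), the median of all genes tested (green diamond) and that of the cytosolic ribosomal protein genes (blue cross). Called members appear for oocyte Aged + LRP1high against Aged + LRP1low (2) and for Aged + LRP1high oocyte against granulosa (7).

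Among granulosa comparisons limma called no gene at all, so members stood against 0% in each direction in all 3. With reads taken as 150 bases, 1 read per kilobase of transcript is 0.157 and 0.136 FPKM in the granulosa Aged libraries. It is 0.264, 0.117 and 0.132 in Aged + LRP1high and 0.448 and 0.166 in Aged + LRP1low. Low levels and listings at 0 in these comparisons thus rest on few reads. At an unadjusted p under 0.05, 5 members were higher and 0 lower in the first comparison below (7.99% and 0.515% of genes), 3 and 1 in the second (3.05% and 0.738%), and 5 and 1 in the third (4.14% and 1.01%). In Aged + LRP1high against Aged granulosa cells, 70 of 76 members lay above 0 and 4 below, with no share of all genes set beside this count. The member median was 0.72, below the 0.89 of all genes and the 2.73 of the cytosolic ribosomal protein genes. Mrpl49, a large subunit protein, read 0.605 and 0.631 FPKM in Aged and 2.55, 2.14 and 3.19 in Aged + LRP1high, a log2 difference of 1.15 (SE 0.33, adjusted p = 0.458 in limma). Mrpl13 and Mrps10 had differences of 0.99 and 1.55 with the same adjusted p. Mrpl20, the counterpart of bacterial L20, was listed at 0 in the 3 Aged + LRP1high libraries and read 1.15 and 0.448 in Aged. Mrpl3 and Mrps21 were the other members below 0 that were named by the rule, by -0.10 and -0.04. The groups did not overlap in 38 members higher and 1 lower, which reads against 50.4% and 1.38% of all genes.

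In Aged + LRP1low against Aged granulosa cells, the member median was 0.22 beside 0.31 for all genes. Mrpl50 read 3.78 and 3.23 FPKM in Aged + LRP1low and was at 0 in the 2 Aged libraries, and Mrpl36 read 5.07 and 1.24 against 0 in both. Mrpl23, at the exit tunnel, had a log2 difference of 1.3 (SE 0.49, adjusted p = 0.904 in limma). Mrpl48 read 5.38 and 2.38 in Aged and 0.0254 and 0.688 in Aged + LRP1low, a difference of -1.82 with the same adjusted p. Mrpl20 and Mrpl49 were listed at 0 in both Aged + LRP1low libraries. Groups did not overlap in 16 members higher and 4 lower, against 30.5% and 6.95% of genes. Without Aged + LRP1low 2, limma called 1 member, Mrpl39, higher, beside 5.57% of genes.

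Between the LRP1high and the LRP1low transplant, granulosa cells had a member median of 0.44, beside 0.45 for all genes. Mrpl49 was at 2.14 to 3.19 FPKM with LRP1high and listed at 0 in both LRP1low libraries, with the smallest p of the members (unadjusted 0.00151, adjusted 0.629 in limma). Mrpl48 and Mrpl1 followed with log2 differences of 2.17 and 1.35. On the lower side stood Mrpl50, Mrpl36 and Mrpl39, by -1.47, -1.25 and -3.23. Mrpl39 showed how 1 library can set a mean, with 118 and 0 FPKM in the 2 LRP1low libraries and 0, 0.0735 and 0.452 with LRP1high. Groups did not overlap in 14 members higher and 1 lower, against 21.7% and 2.28% of genes. Leaving out Aged + LRP1low 2 made 1 call, Mrpl39 lower, beside 3.65% of genes.

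Aged + LRP1high, with 3 libraries of each kind, was the group in which oocytes were compared with granulosa cells, in a model of all 21 libraries and 21767 genes. In oocytes 7 of 77 members were higher and 0 lower, against 5.07% and 0.175% of all genes called by limma. They were Mrps25, Mrps33, Mrpl18, Mrps22, Mrpl40, Mrpl45 and Mrpl17. By particle, 4 of 51 large subunit and 3 of 25 small subunit members were called, and 2 of 46 members with and 5 of 30 without a bacterial counterpart, beside Mrps36, which was not called. Without adjustment, 25 members were higher and 0 lower at p under 0.05 in limma, beside 13.2% and 2.94% of genes. On the log2 scale 72 members lay above 0 and 5 below, a count without the share of all genes. The member median was 1.63 beside -0.18 for all genes. This order of the medians held under each of the 9 settings tried, with members above all genes by 0.99 to 3.10. The 9 again include the main fit and limma's trend and robust options, and no fit with a single replicate left out in turn.

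Mrps25 read 16.2, 62.4 and 157 FPKM in oocytes and 0.272, 0.194 and 0.165 in granulosa cells, a log2 difference of 5.52 (SE 1.01, adjusted p = 0.00708 in limma). Mrpl18, the counterpart of bacterial L18, read 116, 145 and 9.03 in oocytes and 0.257, 0.543 and 0.535 in granulosa cells (5.27, SE 1.03, adjusted p = 0.00807 in limma). In both, every oocyte library was at least an order of magnitude above every granulosa library. Mrps22, a small subunit protein whose human gene is known from ovarian failure, read 115, 60.5 and 10.9 against 0, 0.414 and 0.375 (5.14, SE 1.21, adjusted p = 0.0186 in limma). Mrpl40, of the large subunit and without a bacterial counterpart, read 27.4, 54.4 and 46.8 against 0, 1.91 and 1.36 (4.47, SE 0.97, adjusted p = 0.0124 in limma). Its oocyte values were among the most even of the called members, as the plot of called members by library shows. Mrps33 read 138, 188 and 44.7 against 2.96, 0.764 and 1.17 (5.42, SE 1.53, adjusted p = 0.0484 in limma). Mrpl45 read 39.2, 34 and 88.6 against 4.98, 0.251 and 1.49 (4.24, SE 1.01, adjusted p = 0.0197 in limma). Mrpl17, near the exit tunnel, read 8.49, 18.7 and 12 against 1.83, 0.162 and 0.413 (3.01, SE 0.79, adjusted p = 0.0338 in limma). The groups of these 7 members did not overlap. Mrpl21, high in all 3 oocyte libraries, was not called (adjusted p = 0.137 in limma), and granulosa Aged + LRP1high 3 read 106, inside the oocyte range of 99.0 to 170.

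**Figure D4:**
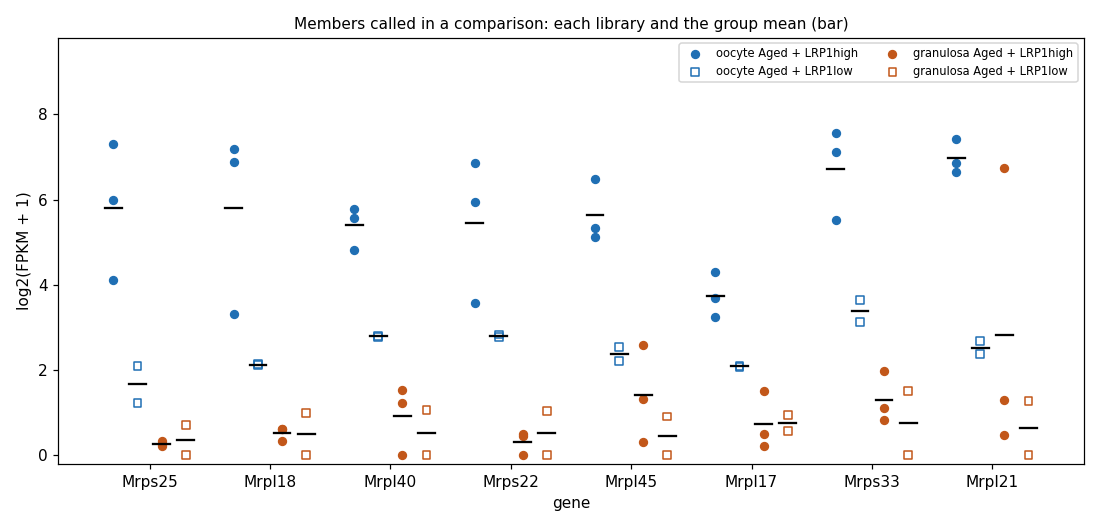
Levels of the 8 members called in a comparison on the log2(FPKM + 1) scale, by library (filled circles LRP1high, open squares LRP1low, blue oocyte, orange granulosa) with group means as bars. For 7 of them each LRP1high oocyte library lies above each LRP1high granulosa library, and for Mrpl21 1 granulosa library lies within the oocyte range.

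No member was lower in these oocytes by the test, and Mrps10, Mrpl19 and Mrpl15 came nearest, with log2 differences of -0.73, -0.60 and -0.69 (adjusted p 0.709 to 0.711 in limma). Groups did not overlap in 22 members higher and 1 lower, against 11.4% and 20.1% of all genes. Mrps25 was called in 7 of 8 other settings and without each of the 19 libraries left out in turn, and Mrpl18 in 6 of 8 and 19 of 19. Mrpl40 was called in 5 of 8 and 18 of 19, Mrps22 in 5 and 14, and Mrpl45 in 4 and 16. Least often called were Mrpl17, in 3 of 8 and 11 of 19, and Mrps33, in 4 and 6. With libraries rescaled to genes other than mitochondrial and Gm genes, 0 members were called, beside 0.0973% of all genes higher and 0.158% lower. The count of 7 became 14 without oocyte Young 3 and 16 without oocyte Aged + LRP1high 3, beside 6.86% and 7.32% of all genes called higher. It became 3 without oocyte Aged + LRP1high 1 or granulosa Aged + LRP1high 2, beside 1.92% and 1.27%, and 4 without granulosa Aged + LRP1high 1 or 3, beside 2.91% and 3.1%. All of these calls were higher in oocytes. Without the 5 libraries whose oocyte markers go against their label, an alternative added after the data were seen, it was 11, beside 10% of all genes called higher. Granulosa markers reached a median of 21.4 FPKM in granulosa Aged + LRP1high 3 but 1.93 and 0.326 in the other 2 of that group.

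The difference between cell types in the response was tested as an interaction. Neither for LRP1high nor for LRP1low against Aged did limma call a member, or any gene in either direction (0%). For LRP1high, 0 members were higher and 3 lower at an unadjusted p under 0.05, against 0.221% and 15.8% of genes. These were Mrpl15, Mrps9 and Mrpl50, with interactions of -3.44, -3.17 and -3.12 (adjusted p 0.211 to 0.309 in limma), meaning a lower response in oocytes. Mrps25, Mrps6 and Mrpl36 were on the other side with 2.08, 2.57 and 1.94. Without oocyte Aged 2, 1 member was called, Mrpl19 lower, beside 35.3% of genes. For LRP1low, 2 were higher and 2 lower at an unadjusted p under 0.05, against 3.94% and 2.47% of genes. Mrpl49 and Mrpl43 had interactions of 3.79 and 3.40 and Mrps10 one of 2.05, and Mrpl18, Mrpl50 and Mrps18c had -4.52, -3.28 and -5.89 (adjusted p 0.647 to 0.908 in limma).

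Other genes of mitochondrial translation were read from lists chosen for this pathway. Mitoribosome proteins outside the symbol pattern numbered 5. Gadd45gip1, a large subunit protein near the exit tunnel, rose in LRP1high against LRP1low oocytes, with 87.2, 116 and 41.0 FPKM against 3.85 and 3.71 (log2 difference 3.99, adjusted p = 0.0338 in limma), the 1 call among the 5. Gadd45gip1 and Dap3, a GTP-binding small subunit protein, were also higher in LRP1high oocytes than granulosa cells, by 5.87 and 4.59 (adjusted p 0.00639 and 0.0115 in limma). Of 25 assembly factors tested, Nsun4, an rRNA methyltransferase, was called higher there by 4.74 and 0 were lower, beside 5.07% and 0.175% of all genes called by limma.

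Between LRP1high and LRP1low oocytes the assembly factors and aminoacyl-tRNA synthetases had medians nearer to that of all genes (-1.89) than to that of the members. Mtg2, Mrm3, Trub2 and Ybey fell, 4 of 25 assembly factors beside 24.8% of all genes called lower by limma, with a list median of -1.48. Mrm3 is an rRNA methyltransferase and read 0, 0.0843 and 0 FPKM with LRP1high and 8.16 and 3.26 with LRP1low. Cars2, Iars2, Mars2 and Nars2, which charge mitochondrial tRNAs, fell as 4 of 18 synthetases, with a median of -2.23. Neither count stands out from the 24.8% of all genes that fell. None of 15 translation factors was called, with a median of -0.77. Of 78 cytosolic ribosomal protein genes, 3 rose and 1 fell, with a median of 2.28, well above the 0.25 of the members. Transcripts of the mitochondrial genome lay lower, with 2 of 13 mRNAs called (mt-Nd2 and mt-Nd4l) and a median of -1.90. The same pair was called lower in LRP1high oocytes than granulosa cells, where 2 of 78 cytosolic ribosomal protein genes, 0 of 15 translation factors and 0 of 18 synthetases were called. None of these lists had a call in the other 11 comparisons.

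The single granulosa Aged + Unsorted library carried member levels like those of an oocyte library. Over the 78 members its Spearman correlation with oocyte Aged + Unsorted 2 was 0.980, the highest of the 210 pairs of libraries. With oocyte Young 3 it was 0.899, and with the granulosa Young library 0.274. Libraries of 1 oocyte group correlated by -0.067 to 0.543 (9 pairs). Of 75 members at 1 FPKM or more in both libraries, all had a ratio of granulosa to oocyte level between 0.5 and 2, from 0.540 to 1.61 with a median of 0.859. Correlations here are across genes, which are not replicates, and share base composition and transcript length. Oocyte markers were at a median of 799.7 FPKM in that granulosa library and granulosa markers at 0.81.

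**Figure D5:**
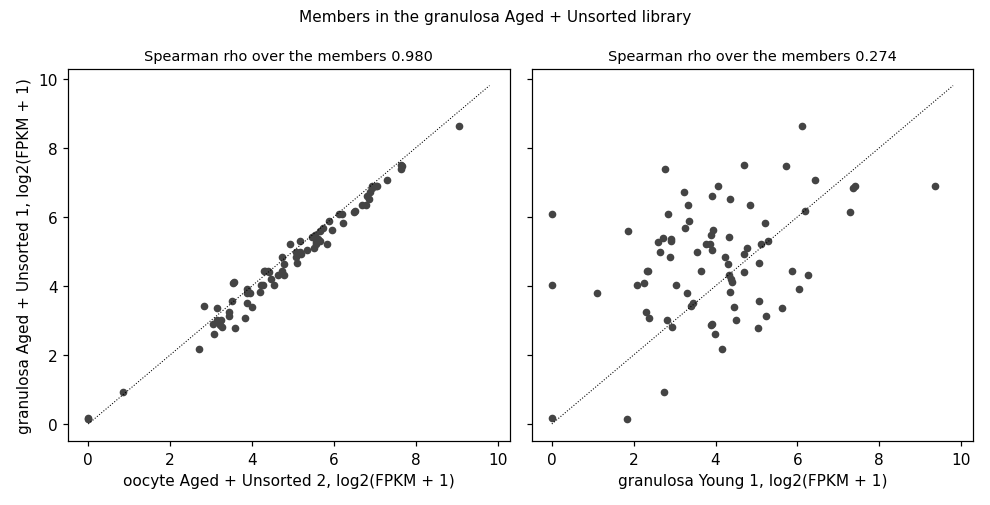
Level of each member in the granulosa Aged + Unsorted library (vertical axis, log2(FPKM + 1)) against oocyte Aged + Unsorted 2 (left) and against granulosa Young 1 (right), with the line of equal levels dotted. Points follow the line on the left (Spearman 0.980) and scatter on the right (0.274).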

How the data were processed

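RNA was measured in 21 libraries of mouse oocytes and granulosa cells. Per the labels, libraries were made with a stranded kit and, per the study's methods, with Smart-seq2, and the submitters' processing notes name HISAT2 2.2.1 and StringTie 1.3.3b. The notes name the build mm9, but the identifier versions and coordinates of all 78 members and of 54587 of 55335 genes are those of GENCODE M21 (GRCm38). The authors deposited, for each gene and library, coverage, FPKM and TPM. FPKM as deposited by the authors was summed over repeated gene identifiers and used throughout. TPM as deposited by the authors served as an alternative, and depth was taken from single-exon genes, as the median of deposited coverage divided by FPKM. No read counts were used, so counting intervals could not be computed and the number of libraries limits the precision.

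Groups followed the labels. limma 3.58.1 (R 4.3.3) fitted log2(FPKM + 1). Each cell type had 1 model that held every group of it, and a model of the 10 groups of all 21 libraries served the comparison of cell types and the interactions. Genes under a mean of 1 FPKM in the model were left out, which gave 28004 (oocyte), 13002 (granulosa) and 21767 (both) genes. Calls needed a fold change above 1.5 and a Benjamini-Hochberg adjusted p under 0.05 over all genes tested. The procedure was also run on simulated data with group sizes, means and residual spreads taken from these libraries, and its outcome is not given here. Not overlapping means that every library of a group exceeds every library of the other.

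The members, lists and tests were chosen with earlier results of these data known. Named were, in each comparison, up to 5 members called in each direction with the largest change and no overlap, or where none was called up to 3 in each direction by unadjusted p. Also named were the 5 highest and 5 lowest members of each cell type, members that failed the filter, and members with a set role. Mrpl45 and Mrpl17 in the comparison of cell types, Mrpl21 there, and the genes of the other lists were named after their values were seen. Promoter windows came from RefSeq (GRCm38.p6), and proteins were not used. Alternatives were a pseudocount of 0.1, no filter, TPM, quantile normalization, rescaling of each library to genes other than mitochondrial and Gm genes, limma with trend and robust settings, a replicate block, unadjusted p, and each replicate left out.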

Additional observations from a re-analysis of the deposited data

Results flagged for a closer look

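Both granulosa groups with a single library entered no comparison, and both held member levels above those of the granulosa Aged controls. In granulosa Aged + Unsorted 1 the member median was 27.3 FPKM, and in granulosa Young 1 it was 14.1 FPKM, against 0.0654 and 0.128 in the 2 granulosa Aged libraries. Of the 78 members, 75 reached 1 FPKM in each of the single libraries and 3 and 1 in the Aged libraries. Over all protein-coding genes, 45.3% reached it in Young 1 and 47.7% in Aged + Unsorted 1, against 4.8% and 3.94% in the Aged libraries. With 1 library each, these differences have no replicate check. The oocyte marker median was 799.7 FPKM in the Aged + Unsorted and 4.36 in the Young library, and the granulosa marker median 0.81 and 74.9, and their part in the result was not tested.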

How the results depend on the processing

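Of the 13 counts of called members, 11 were 0 and those of the LRP1high with LRP1low oocytes (2) and of the LRP1high oocytes with granulosa cells (7) were not. With LRP1high against LRP1low oocytes the count was 0 with a pseudocount of 0.1, 4 without a filter (1 higher, 3 lower), 4 with TPM (3 higher, 1 lower), 1 with quantile normalization (Mrpl18, higher), 6 after rescaling (all lower), 3 with limma's trend and robust options (1 higher, 2 lower) and 0 with a replicate block. With oocytes against granulosa cells it was 8 with a pseudocount of 0.1, 1 without a filter, 10 with TPM and 2 with quantile normalization. It was 0 after rescaling and 5 with limma's trend and robust options. The count was 11 without the libraries that go against their label, which was added after seeing the data. In Aged + LRP1low against Aged oocytes it was 2 without a filter and 1 with TPM (all higher, beside 21.5% and 18.1% of genes), and in the LRP1low interaction 1 with quantile normalization (Mrpl18) and 1 after rescaling (Mrpl49). The cause of these changes was not tested. Counts that stand without a share of all genes, here or above, say nothing about the members in particular. At an unadjusted p under 0.05, with fewer conditions to pass, the counts were 1 (Aged against Young oocytes), 3 (LRP1high against Aged), 3 (LRP1low against Aged), 7 (LRP1high against Young), 8 (LRP1high against LRP1low) and 2 (LRP1high against Unsorted). They were 5, 4 and 6 in the granulosa comparisons (LRP1high against Aged, LRP1low against Aged, LRP1high against LRP1low), 25 between cell types, and 3 and 4 in the LRP1high and LRP1low interactions.

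Leaving out each replicate in turn gave 3 to 16 calls between cell types, 0 to 5 for LRP1high against LRP1low oocytes, 0 to 5 for Unsorted against Aged, 0 to 5 for LRP1high against Aged and 0 to 2 for LRP1high against Young oocytes. It gave 0 to 1 for Aged against Young oocytes, LRP1low against Aged oocytes, LRP1low against Aged granulosa cells, LRP1high against LRP1low granulosa cells and the LRP1high interaction, and 0 to 0 for the other 3. Where 1 library was left in a group, it was assumed to vary like the other groups. Without the libraries that go against their label, comparisons with LRP1low oocytes could not be made, since no such library was left.

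Within a cell type, deviations of same-numbered libraries from their group means correlated by -0.436 to 0.441 in oocytes (4 of 21 pairs above 0.1). Differently numbered oocyte libraries gave -0.520 to 0.520 (11 of 36). In granulosa cells the ranges were -0.0761 to 0.256 (1 of 6) and, differently numbered, -0.256 to 0.255 (1 of 10). Deviations in groups of 2 libraries mirror each other, so these pairs are not independent and the check cannot exclude pairing. Oocyte libraries were not set against granulosa libraries of the same number in this check. The replicate block gave 7 calls between cell types, 0 for LRP1high against LRP1low oocytes and 0 elsewhere.

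The member medians moved by less than the spread between replicates, 1.45 on the log2 scale, in all 263 alternatives. That spread exceeds most of the medians, so staying within it does not show that a median is stable. The trend and robust options of limma cannot move a median. Of the alternatives other than leaving out a replicate, 9 turned a sign. Quantile normalization gave -0.14 for Aged against Young oocytes, 0.65 for LRP1high against Aged oocytes, -0.01 for LRP1low against Aged granulosa cells and 0.54 for the LRP1high interaction. TPM gave 0.07 for LRP1high against Aged and a pseudocount of 0.1 gave -0.03 for LRP1high against LRP1low oocytes, and rescaling gave -0.63 for LRP1high against LRP1low oocytes, 0.15 for LRP1low against Aged oocytes and 0.36 for the LRP1low interaction. Leaving out each replicate turned the sign in 6 comparisons: medians ran from -0.02 to 2.24 for Aged against Young, -0.0031 to 2.03 for Unsorted against Aged, -1.04 to 0.76 for LRP1high against Aged, -1.52 to 0.3 for LRP1low against Aged and -0.25 to 1.04 for LRP1high against LRP1low oocytes, and from -1.93 to 0.18 for the LRP1high interaction. Depth was lowest in LRP1low libraries of both cell types (0.278 and 0.335 gigabases), so a listing at 0 there does not show that a gene is absent.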
